A study of Homo sapiens with 6 samples.

Results

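The genes that sense foreign or misplaced RNA and pass the signal on to interferon were examined in PC-3 cells, an established line from a prostate cancer metastasis that grows without androgen. The set was given by name and holds 9 genes, the RNA sensors DDX58, IFIH1, DHX58 and TLR3, the adaptor MAVS, and the interferon signalling factors STAT2, IRF9, IRF1 and IRF7. Values for 8 of the 9 were used, of 19491 genes listed, and DHX58 was not analysed here. The genes were chosen by their CPM (reads per 1e6 reads of the library) in these libraries, which was already known, so their levels and differences are a description. Tests that enter the libraries as samples stand only among the alternatives and support nothing said of these genes.

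PC-3 cells without any transgene were left untreated (control) or were incubated for 48 h with GPNA or BenSer, both inhibitors of ASCT2 (SLC1A5), a carrier that brings glutamine into the cell. The doses, 1 mM GPNA and 10 mM BenSer, come from the figure legends of the study and not from the sample labels. Total RNA was sequenced, and 6 libraries are labelled, 2 per group, with 23077986 to 32178154 reads each. Listed genes took 51.6% to 52.7% of the reads. Within a group the libraries were separated by scarcely more than sampling of reads gives (chi-square per degree of freedom 1.06 for control, 1.05 for GPNA, 1.05 for BenSer, and 5.50 to 20.7 across groups), so they were merged and counted as 1 sample. With 1 sample per group no difference given here has a replicate check among the labelled libraries, and the 95% intervals cover counting error only.

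The deposited tables hold further value columns that the labels do not name. The study's methods describe more replicates per group than the labels name. The further columns were not analysed, since no label ties them to a sample, but those of the BenSer table were seen when it was opened. There the columns headed as BenSer did not show the rise of the cytosolic sensors: DDX58 and IFIH1 were lower, not higher, than in the further control columns, IRF7 overlapped, and STAT2 and IRF1 were higher by less than in the labelled libraries. The differences described here are therefore those of the labelled libraries alone. In the columns left out, the rise with BenSer did not hold for DDX58 and IFIH1, and IRF7 was not separated from the control. Nothing is said here of those columns for TLR3, IRF9 or MAVS, or for GPNA.

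Background on the pathway is as follows. DDX58 (RIG-I) and IFIH1 (MDA5) are helicases that bind double-stranded RNA in the cytosol and then act on MAVS, an adaptor on the mitochondrial membrane, while TLR3 detects such RNA inside endosomes. Kinases below these adaptors activate IRF3 and IRF7, which switch on the genes of type I interferons. Secreted interferon binds its receptor, and a complex that holds STAT2 and IRF9 then enters the nucleus and binds the interferon-stimulated response element (ISRE), so that several of the sensors are themselves interferon-inducible. IRF1 belongs mainly to the answer to interferon gamma, which acts through the gamma-activated sequence (GAS).

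The promoters are shown because the ISRE and the GAS are the elements through which this pathway acts on its own genes. RefSeq promoter windows on GRCh38.p14, from 250 bases before to 50 bases after the start, were found for 7 of the 8 genes and not for IRF7. The ISRE core (GAAA, then 2 bases of any kind, then GAAA), the GAS (TTC, 3 bases of any kind, GAA) and the IRF element (AA, 2 bases of any kind, GAAA, which overlaps the ISRE core) were searched on both strands. They are present in 3.57%, 7.66% and 22.8% of all 35116 promoters. Capitals mark the matched letters in the following stretches, which are written 5′ to 3′ on the strand of the gene:
DDX58 (chr9:32526310-32526413, minus strand): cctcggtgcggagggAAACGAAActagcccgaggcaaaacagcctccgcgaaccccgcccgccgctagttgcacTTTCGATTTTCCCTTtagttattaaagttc
IFIH1 (chr2:162318681-162318858, minus strand): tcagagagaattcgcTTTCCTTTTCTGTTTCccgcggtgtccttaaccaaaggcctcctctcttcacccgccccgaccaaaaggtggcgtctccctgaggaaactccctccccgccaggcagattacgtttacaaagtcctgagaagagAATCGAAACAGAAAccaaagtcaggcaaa
TLR3 (chr4:186068963-186069176, plus strand): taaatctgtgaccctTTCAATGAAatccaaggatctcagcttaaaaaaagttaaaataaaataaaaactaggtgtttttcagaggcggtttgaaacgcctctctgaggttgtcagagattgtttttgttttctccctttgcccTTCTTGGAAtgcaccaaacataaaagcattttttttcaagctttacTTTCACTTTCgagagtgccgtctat
IRF9 (chr14:24161187-24161252, plus strand): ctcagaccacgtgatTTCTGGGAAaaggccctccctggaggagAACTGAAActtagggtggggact
IRF1 (chr5:132490874-132490912, minus strand): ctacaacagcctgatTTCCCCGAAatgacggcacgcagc

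IFIH1 held the ISRE core at 3 places, which lie 159 to 144 and 21 to 12 bases before the start, and TLR3 held it once, across the start itself. The GAS letters occurred at 2 places in TLR3 and at 1 place each in IRF9 and IRF1. DDX58 held 3 IRF elements and no ISRE core of these letters. None of the 3 motifs was present in the windows of MAVS and STAT2, which says only that these letters are not there.

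**Figure D1:**
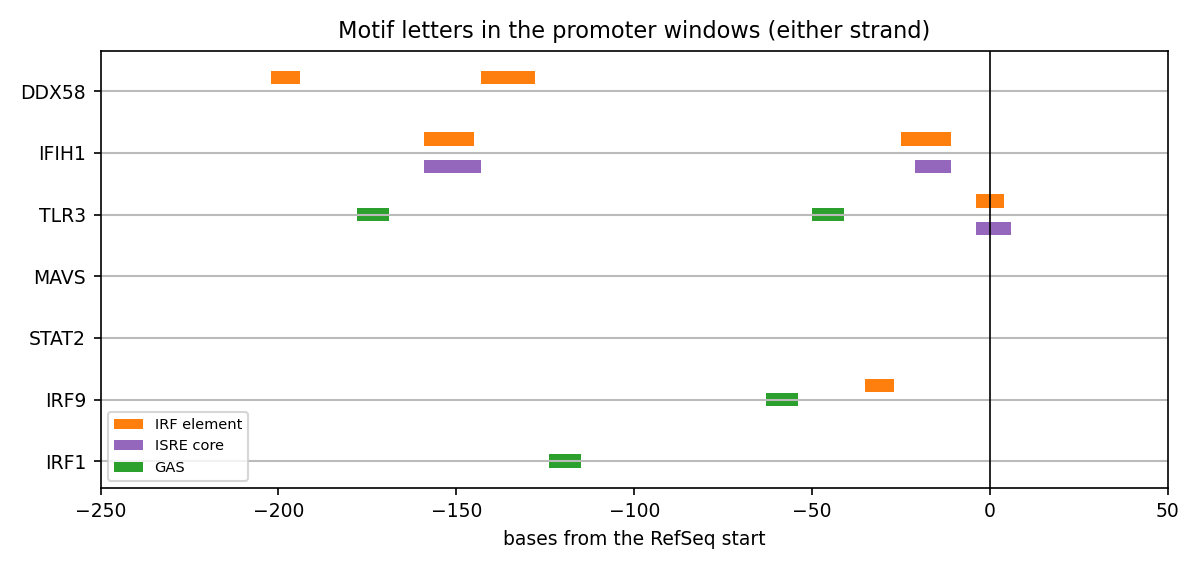
Positions of the motif letters in the promoter windows of 7 genes, in bases from the RefSeq start (vertical line at 0), with 1 grey line per gene and coloured bars for the ISRE core, the GAS and the IRF element on either strand. IFIH1 has 3 ISRE cores and TLR3 has 1, and the lines of MAVS and STAT2 carry no bar.

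Both cytosolic sensors were higher in the treated than in the control libraries. IFIH1 (ENSG00000115267, GRCh37 chromosome 2, 163123584 to 163175194, minus strand, 16 exons), the sensor of long double-stranded RNA, read 11.8 and 12.1 CPM in the control libraries, 22.5 and 19.5 CPM with GPNA and 31.0 and 31.1 CPM with BenSer. The 3 groups did not overlap, with the control lowest and BenSer highest. Here and below, the libraries of a group count as 1 sample. The share of all genes without overlap is not given here, so nothing is read from it. On the scale of log2(CPM + 1), which is used for all differences, IFIH1 was higher by 0.76 with GPNA (interval 0.62 to 0.90) and by 1.30 with BenSer (1.18 to 1.43). As plain ratios of CPM these are 1.75 and 2.59.

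DDX58 (ENSG00000107201, chromosome 9, 32455300 to 32526194, minus strand, 18 exons), which recognises the ends of short double-stranded RNA, read 21.7 and 23.9 CPM untreated, 37.3 and 35.8 CPM with GPNA and 50.4 and 51.9 CPM with BenSer. The order of the groups was that of IFIH1, again without overlap. Its log2 difference from the control was 0.66 with GPNA (0.55 to 0.77) and 1.13 with BenSer (1.04 to 1.23). Of the exon bases of its MANE Select transcript, 96.6% are also annotated in GENCODE v44lift37 to a second gene on the same strand. If the annotation used in counting held that gene, which is not known here, reads of DDX58 may have been split or lost.

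TLR3 (ENSG00000164342, chromosome 4, 186990310 to 187009227, plus strand, 5 exons), the endosomal sensor, was near the limit of detection. It had 14 reads in the merged control, 26 with GPNA and 63 with BenSer, or 0.258 and 0.347 CPM, 0.543 and 0.471 CPM, and 0.994 and 0.970 CPM in the single libraries. The ratio of CPM to the control was 1.68 with GPNA, where the interval of 0.845 to 3.48 includes no difference, and 3.25 with BenSer (1.80 to 6.28). At so few reads the pseudocount shrinks the log2 difference, to 0.21 and 0.61. The second passes 1.5-fold by little, and it fell below it without control library 1 (0.56) and with a pseudocount of 5 CPM (0.17).

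MAVS (ENSG00000088888, chromosome 20, 3827481 to 3856765, plus strand, 7 exons), on which both cytosolic sensors act, did not share their pattern. Its libraries read 67.0 and 69.3 CPM untreated, 53.8 and 56.9 CPM with GPNA and 73.9 and 73.3 CPM with BenSer. GPNA was the lowest group, with a log2 difference of -0.30 (-0.37 to -0.22), and BenSer lay 0.11 above the control (0.04 to 0.17). Neither value reached 1.5-fold.

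**Figure D2:**
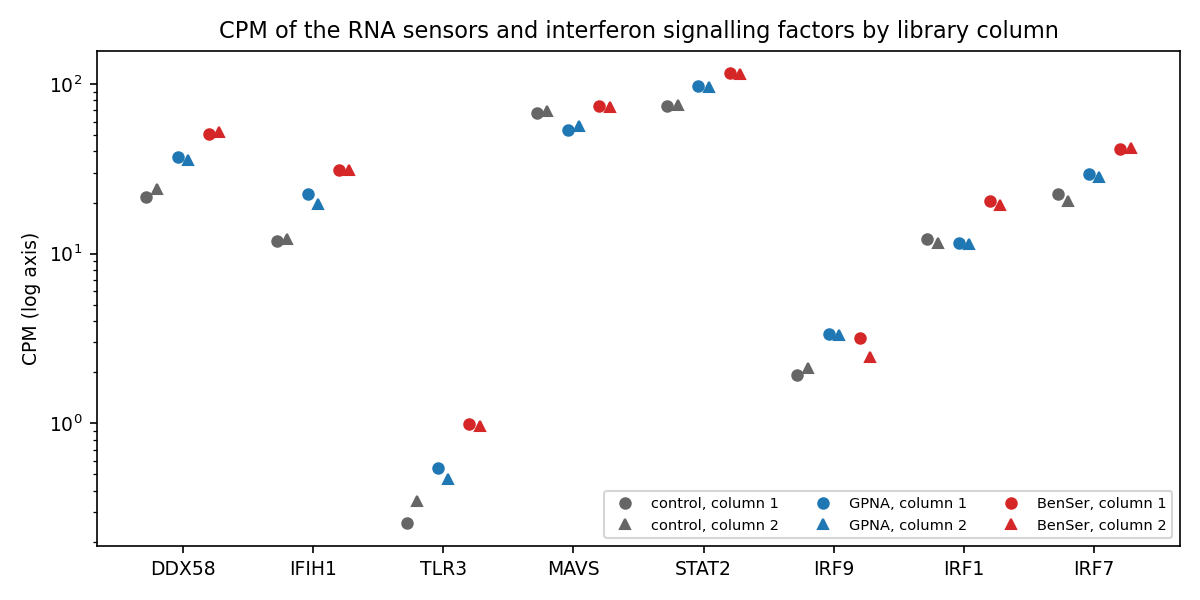
CPM (log axis) of the 8 genes in each of the 6 labelled libraries, with circles for column 1 and triangles for column 2 of a group, grey for the control, blue for GPNA and red for BenSer. DDX58, IFIH1, TLR3, STAT2 and IRF7 step up from control to GPNA to BenSer, whereas MAVS is lowest with GPNA and IRF1 stands apart with BenSer alone.

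Among the interferon signalling factors, IRF7 differed most with BenSer, and IRF9 with GPNA, where its interval overlapped that of IRF7. IRF7 (ENSG00000185507, chromosome 11, 612555 to 615950, minus strand, 11 exons), which amplifies the transcription of type I interferon genes, read 22.5 and 20.3 CPM untreated, 29.7 and 28.5 CPM with GPNA and 41.5 and 42.1 CPM with BenSer. Its groups did not overlap. The log2 difference was 0.42 with GPNA (0.31 to 0.54) and 0.93 with BenSer (0.83 to 1.03).

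STAT2 (ENSG00000170581, chromosome 12, 56735381 to 56753891, minus strand, 24 exons), which brings the transactivation domain to the interferon-activated complex, read 73.7 and 75.2 CPM untreated, 96.6 and 96.1 CPM with GPNA and 116 and 115 CPM with BenSer. The step was smaller than for IRF7 but in the same order of groups. The log2 difference was 0.37 with GPNA (0.31 to 0.43) and 0.62 with BenSer (0.56 to 0.68), and the second lies close to the 1.5-fold limit.

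IRF9 (ENSG00000213928, chromosome 14, 24630474 to 24635774, plus strand, 9 exons), the DNA-binding partner of STAT2, was low, at 1.94 and 2.12 CPM untreated, 3.37 and 3.30 CPM with GPNA and 3.17 and 2.47 CPM with BenSer. Both treated groups lay above the control. GPNA was the higher here, but the counting interval of BenSer against GPNA included no difference. The log2 difference was 0.52 with GPNA (0.25 to 0.78) and 0.34 with BenSer (0.08 to 0.59). Other annotated genes share 93.1% of its exon bases on the same strand and 18.9% on the opposite strand, and the use of strand in counting is not given in the sources used here.

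IRF1 (ENSG00000125347, chromosome 5, 131817301 to 131826465, minus strand, 10 exons), a transcription factor induced most strongly by interferon gamma, read 12.3 and 11.5 CPM untreated, 11.6 and 11.5 CPM with GPNA and 20.4 and 19.3 CPM with BenSer. Control and GPNA overlapped, and BenSer stood apart. The log2 difference was -0.04 with GPNA (-0.20 to 0.12) and 0.70 with BenSer (0.56 to 0.84). Genes on the opposite strand, one of them IRF1-AS1, share 16.3% of its exon bases.

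Counted together, 2 of 8 genes (IFIH1 and DDX58) were at least 1.5-fold higher with GPNA, beside 0.34% of the 18828 genes that averaged 5 reads or more in one of the groups, and 0 were at least 1.5-fold lower, beside 0.0637%. With BenSer 6 of 8 were at least 1.5-fold higher, beside 1.96% of 18976 genes, and 0 were lower, beside 1.59%. With TMM scaling in place of library totals, the genes past 1.5-fold with BenSer split into 432 higher and 214 lower, against 371 and 301, while the count of 6 did not move. The median difference of the 8 genes was 0.40 with GPNA and 0.66 with BenSer, where the median of all genes was -0.03 in both. All 8 genes passed the limit on reads. These counts follow from the way the genes were picked and nothing is read from them, and both comparisons use the same control libraries.

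**Figure D3:**
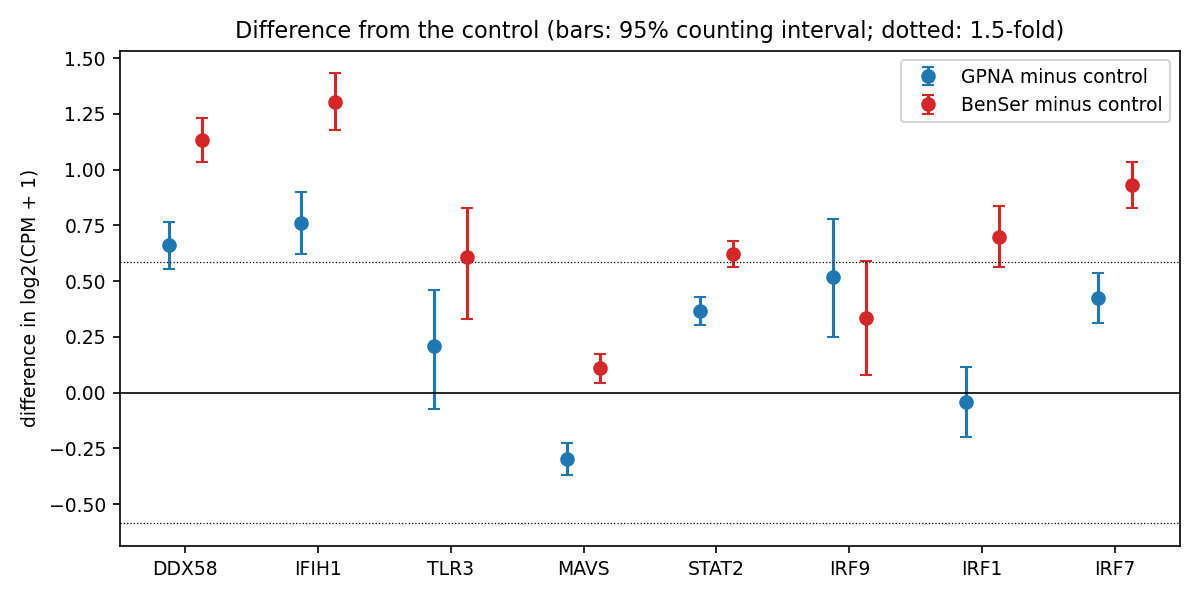
Difference in log2(CPM + 1) from the control for each of the 8 genes, blue for GPNA and red for BenSer, with 95% counting intervals and dotted lines at 1.5-fold. With BenSer 6 genes lie above the upper dotted line, with GPNA only IFIH1 and DDX58 do, and the GPNA value of MAVS is below 0.

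The doses of the compounds differ, so BenSer and GPNA are set side by side without a comparison of their strength. IRF1, at 0.74 (0.61 to 0.87), was the only 1 of the 8 genes at least 1.5-fold higher in the BenSer libraries than in the GPNA libraries, beside 1.06% of 19056 genes, and 0 were lower, beside 0.813%. The other values ran from -0.18 for IRF9 to 0.54 for IFIH1.

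Per kilobase of the MANE Select transcript, which allows levels to be compared between genes, STAT2 was the highest of the set in the control at 16.9 CPM per kb, followed by IRF7 at 11.1, MAVS at 5.81 and DDX58 at 4.92. IFIH1 at 3.35 and IRF1 at 3.34 CPM per kb could not be told apart by their counting intervals, and IRF9 at 1.248 and TLR3 at 0.0503 CPM per kb were the lowest. With BenSer DDX58 was at 11.1, IFIH1 at 8.67 and MAVS at 6.28 CPM per kb. Lengths over the union of all annotated exons, used first and then replaced once their values had been seen, put IRF7 (8.20) above STAT2 (7.998) and IFIH1 (2.29) above DDX58 (2.20) in the control. With BenSer they turned the order of the sensors and the adaptor, with DDX58 at 4.95 and IFIH1 at 5.94 below MAVS at 6.25 CPM per kb, so the order rests on the choice of length.

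The rest of the pathway was described with a list of 100 genes, of which 74 had values. With GPNA 2 of 74 genes were at least 1.5-fold higher, beside 0.34% of all genes, and 0 were lower, beside 0.0637%. The median difference was 0.00. With BenSer 7 of 73 genes were at least 1.5-fold higher, beside 1.96% of all genes, and 0 were lower, beside 1.59%. The median was 0.12. Most of the pathway stayed within 1.5-fold of the control in both comparisons, as did most of all genes. The higher genes were a larger share of the list than of all genes. The list was drawn up with earlier results of these data known, so nothing is read from that. The same shares over all genes apply to the counts by role below, and nothing is read from those counts either.

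Of the other RNA sensors and their cofactors, 1 of 11 was higher with GPNA and 2 of 11 with BenSer, beside 0.34% and 1.96% of all genes. DDX60, a helicase described as a helper of DDX58, had a level of 13.3 CPM in control libraries, 26.4 CPM with GPNA and 33.5 CPM with BenSer, for differences of 0.94 (0.81 to 1.07) and 1.27 (1.15 to 1.40). EIF2AK2 (PKR), a kinase that halts translation when it binds double-stranded RNA, differed by 0.48 with GPNA and by 0.79 with BenSer. Among 5 DNA sensors only IFI16 reached 1.5-fold, with BenSer (0.63), beside the same shares of all genes.

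None of the 16 adaptors and kinases between the sensors and the IRFs reached 1.5-fold in either comparison. Of all genes 0.34% were higher and 0.0637% lower with GPNA, and 1.96% and 1.59% with BenSer. A count of 0 of 16 is near these shares and is not read as a result. TICAM1, the adaptor of TLR3, differed by -0.35 with GPNA and by -0.00 with BenSer, and the kinase TBK1 by 0.10 and 0.15. IRF3, which TBK1 phosphorylates, differed by -0.04 and 0.12.

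Of 21 interferon genes on the list, 2 had values, IFNE and IFNK, and both were below 1 CPM in every group. IFNB1 and the others were not analysed here. The 9 interferon receptor chains and their kinases stayed within 1.5-fold in both comparisons. This too is near the shares of all genes and is not read as a result. With BenSer 9 lay above 0 and 0 below, 7 of them with counting intervals above 0, beside 44.6% of all genes above 0. With GPNA 6 lay above 0 and 3 below, beside 43.3% of all genes above 0. IFNAR1 differed by 0.02 with GPNA and 0.28 with BenSer, IFNAR2 by 0.08 and 0.15, JAK1 by -0.08 and 0.12 and TYK2 by -0.05 and 0.14.

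Of 16 brakes on sensing or signalling, 1 was higher with GPNA and 2 with BenSer, beside 0.34% and 1.96% of all genes. USP18, which removes ISG15 and blocks the interferon receptor, differed by 0.61 with GPNA (0.40 to 0.82) and by 1.01 with BenSer (0.82 to 1.20). NLRC5, also known as an activator of MHC class I genes, differed by 0.20 and 0.74. Of 10 genes that edit or dispose of the cell's own nucleic acids, 1 was higher with BenSer, beside 1.96% of all genes. It was SAMHD1, which degrades deoxynucleotides (0.67). With GPNA 0 of the 10 were higher, beside 0.34%. ADAR, which edits double-stranded RNA, stayed below 1.5-fold at 0.13 and 0.54.

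**Figure D4:**
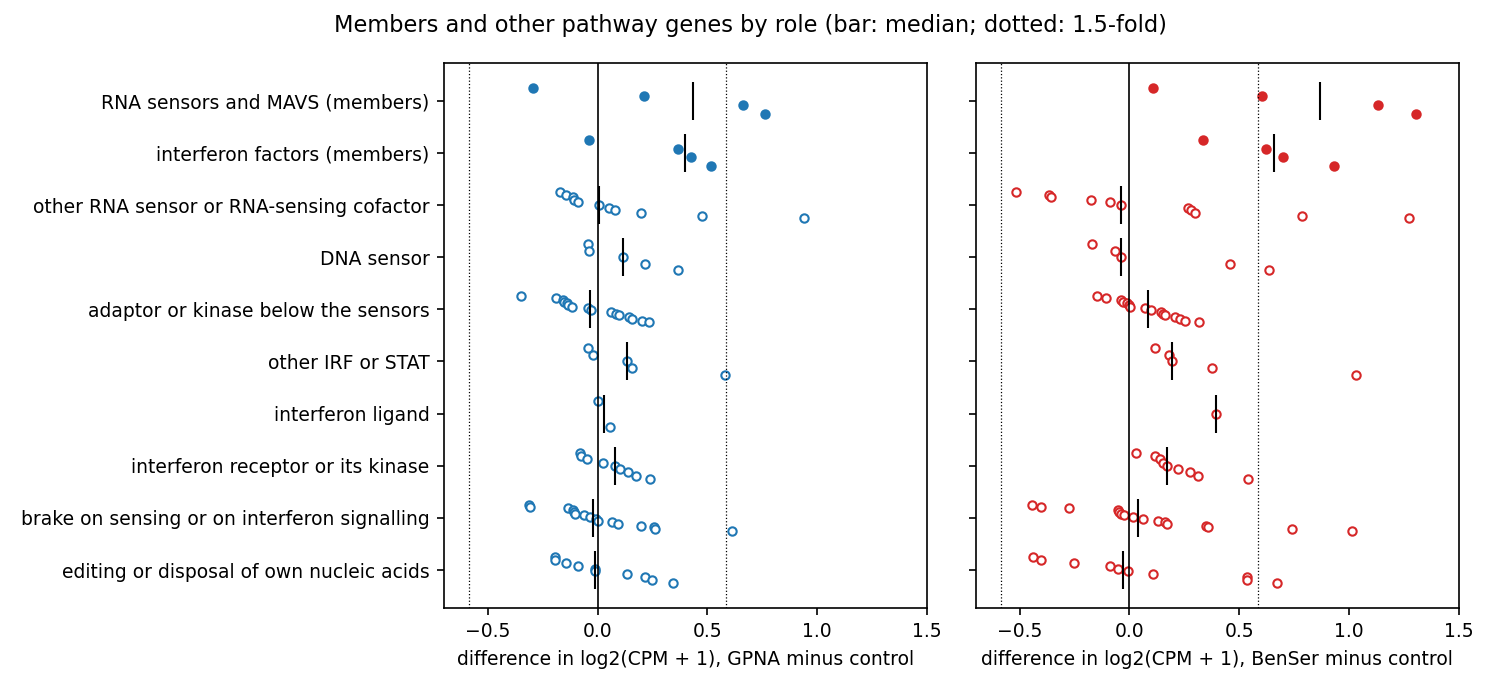
Difference in log2(CPM + 1) from the control for the 8 genes (filled circles) and the other pathway genes with enough reads (open circles) by role, GPNA on the left and BenSer on the right, with a bar at each median and dotted lines at 1.5-fold. The adaptors and kinases and the receptors lie within the dotted lines, and DDX60 lies furthest right among the open circles in both panels.

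The genes whose pair of differences lay closest to the median pair of the set, among 10190 genes with at least 5 CPM in some group, were ITGB4, HLA-B, TMEM159, FAM129A and TBCK, at Euclidean distances of 0.0242 to 0.0361 over the 2 comparisons. HLA-B, a heavy chain of MHC class I, differed by 0.38 with GPNA and 0.68 with BenSer, and ITGB4, an integrin chain of epithelial cells, by 0.37 and 0.67.

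The labelled cell type was checked against marker lists. All 6 epithelial markers had values, summing to 1516 to 1736 CPM per library, 1560 to 1569 CPM in control libraries, 1516 to 1530 CPM with GPNA and 1735 to 1736 CPM with BenSer. Of 6 markers of androgen-dependent luminal cells 3 had values, summing to 18.9 to 19.2 CPM in control libraries, 19.998 to 20.81 CPM with GPNA and 27.44 to 27.96 CPM with BenSer, and their part in the results was not tested. The 10 haematopoietic markers were not analysed here, and 1 of 7 endothelial or fibroblast markers had values, at 3.65 to 6.07 CPM.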

How the data were processed

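Total RNA of PC-3 cells was sequenced by the authors on stranded paired-end libraries. The submitters' processing notes name TopHat2, Bowtie2, HTSeq 0.6.2p2 and DESeq and the builds hg19 and GRCh37.p13. The authors deposited 2 tables whose value columns are headed as counts but hold CPM, reads divided by the library total. All values (100%) were whole reads within 0.01 of a read, so reads were recovered. Of 16 value columns 8 entries (6 distinct) matched no label and were not analysed. The tables' fold changes, average log2 CPM, p-values and false discovery rates were not used.

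Libraries of a group were merged. Differences are of log2(CPM + 1), for genes averaging 5 reads or more in one of the groups, called at 1.5-fold, with exact Clopper-Pearson intervals at 95%. Named pathway genes are those past 1.5-fold plus 11 listed whatever their values; 1 of the genes so chosen is not reported here. The genes, lists and rules were chosen with earlier results of these data known. Annotation was GENCODE v44lift37. Of 4 motifs searched 3 are shown: the other, NF-kB-like (GGG and CC with 5 bases between), was present in 58.7% of promoters and was dropped, and the printed stretches were chosen, after the members' promoters had been seen.

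Alternatives were other pseudocounts, filters, scalings and thresholds, single libraries left out, and edgeR 4.0.16, limma 3.58.1 and DESeq2 1.42.0 (R 4.3.3) with the libraries of a group entered as 2 samples, which compares libraries and not treatments. These tests were fitted first on the 4 columns of each comparison and then on all 6, and the fit on 6 was preferred after both sets of counts had been seen; both are given. Scripts were tested on simulated data. Python 3.11.15, scipy 1.17.1 and matplotlib 3.10.9 were used.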

Additional observations from a re-analysis of the deposited data

How the results depend on the processing

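No alternative turned the direction of a gene called at 1.5-fold. Of the values for the gene lists under an alternative, 192 stayed close to the reported one and 81 moved. The shares of all genes under each alternative are not given in this paragraph, so nothing is read from its counts of genes. With GPNA, the count of higher genes of the set (2 as reported) was 4 with a pseudocount of 0.1 CPM, 1 with 5 CPM, 5 at a threshold 25% above the reference and 0 at 2-fold; the count of higher pathway genes (2) was 1 with 5 CPM, 6 at that threshold (1 lower) and 0 at 2-fold. With BenSer, 2 genes of the set and 3 pathway genes were higher at 2-fold, 15 pathway genes were higher and 7 lower at that threshold, and the median of the set was 0.85 with a pseudocount of 0.1 CPM. Between BenSer and GPNA, 2, 6 and 0 genes of the set were higher with a pseudocount of 0.1 CPM, at that threshold and at 2-fold. With single libraries left out, 2 genes of the set were higher with GPNA, 5 to 6 with BenSer and 1 to 2 between BenSer and GPNA; TLR3 fell below 1.5-fold without control library 1 (0.56), and IFIH1 passed it between the compounds without GPNA library 1 (0.65).

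Tests with libraries as samples, at an adjusted p under 0.05, count read sampling almost alone as error, and the genes of the set were chosen on these same libraries, so calls among them are given as counts and support nothing. Of all genes on 6 columns, edgeR called 5.65% higher and 13.5% lower with GPNA, limma 1.23% and 1.48% and DESeq2 2.24% and 6.3%. In the same order of tools, 15.5%, 11.4% and 9.1% were higher with BenSer, and 22.1%, 16.3% and 13.4% lower. Between BenSer and GPNA 17.7%, 10.8% and 10.0% were higher, and 16.9%, 11.1% and 9.21% lower. With GPNA, edgeR on 6 columns called 5 genes of the set higher and 1 lower (pathway 12 and 12), limma 4 and 0 (pathway 4 higher) and DESeq2 4 and 1 (pathway 8 and 5). The fit on the 4 columns of the comparison gave 5 and 1 with edgeR (pathway 11 and 12), 4 and 1 with DESeq2 (pathway 7 and 3), but 0 and 0 with limma (pathway 0), which then called 2 genes of 18828 higher and 0 lower, against 231 and 279 on 6 columns. The limma calls with GPNA therefore exist only in the fit chosen after the counts had been seen. With BenSer, edgeR called 30 pathway genes higher and 11 lower in both fits, DESeq2 20 and 10 in both, and limma 22 and 10 on 6 columns and 19 and 9 on 4. Of the set, edgeR called 8, limma 6 and DESeq2 6 higher with BenSer in both fits, and 7, 7 and 6 between BenSer and GPNA. The median of the set under edgeR and DESeq2, which use no pseudocount of 1 CPM, was 0.56 with GPNA and 0.85 with BenSer. Same-numbered libraries did not deviate together (correlations of 0.0022, 0.017 and -5.1e-05). These deviations were nearly all counting error, which could hide a pairing, so whether the numbers pair the samples cannot be told from them. With a replicate block, edgeR called 5 genes of the set higher and 1 lower with GPNA (pathway 12 and 12 in both fits, median 0.56), 8 higher with BenSer on 6 columns and 7 on 4 (pathway 30 and 27 higher, 11 lower, median 0.85), and 7 between the compounds. The depth limits TLR3, with 14 to 63 reads per group.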
